A study of Danio rerio with 2 samples.

Results

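Of the 84 PI3K-Akt pathway genes measured with a quantitative PCR array in zebrafish larvae, 5 belong to beta-catenin signaling and to the entry into the cell cycle that lies downstream of it. They are *apc*, *gsk3b*, *ctnnb1*, *ccnd1* and *rbl2*, chosen by name. WT larvae (AB/TU) were compared with NOD1-deficient larvae (NOD1-1IS-/-), which were homozygous for a 1 bp insertion at the Cas9/gRNA target in the gene of the intracellular receptor NOD1. All larvae were untreated and 10 days post fertilization (dpf) old, and the mutants came from a single allele. Each genotype had 3 biological replicates, each a pool of 200 to 250 larvae measured on its own 96-well array. The assay of *nod1* itself is not on the array, so the genotype of the pools could not be checked there.

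In cells without a Wnt signal, the scaffold protein Apc and the kinase Gsk3b are among the parts of a complex that binds beta-catenin, the product of *ctnnb1*. There Gsk3b phosphorylates beta-catenin and marks it for degradation. When this destruction complex is blocked, beta-catenin accumulates and acts in the nucleus with Tcf/Lef factors, and *ccnd1* is among its known target genes in mammals. Cyclin D1, encoded by *ccnd1*, drives cyclin-dependent kinases that inactivate pocket proteins such as Rbl2, which hold E2F factors silent in resting cells. The pathway meets PI3K-Akt signaling at Gsk3b, which Akt phosphorylates and inhibits. These steps act on proteins, whereas the array measured transcripts.

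In NOD1-deficient larvae none of the 5 transcripts differed from WT at an adjusted p under 0.05, beside 16 of the 84 genes (19.0%). The transcripts of *gsk3b*, *rbl2* and *ccnd1* were lower by 0.31, 0.31 and 0.24 on the log2 scale, values that did not pass the test, and those of *apc* and *ctnnb1* had changes of 0.08 and 0.02. All 5 genes kept the same order of levels in both genotypes, with *ctnnb1* the highest and *rbl2* the lowest. The sign of each change depended on the reference genes chosen, while the ratios between the 5 genes, which need no reference gene, differed between the genotypes by at most 0.40 on the log2 scale.

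Each well was read as a threshold cycle (Ct), the cycle number at which fluorescence of the growing product passes a set value, and 1 cycle earlier means about 2-fold more starting transcript. The 5 genes gave a Ct on all 6 arrays, from 19.9 to 27.1, within the range of 13.9 to 35.1 seen over the 89 pathway and reference genes. Expression was read as delta Ct, the distance in cycles between a gene and the average of 3 reference genes (*hprt1*, *nono* and *rpl13a*) run on that array, and a higher delta Ct means less transcript. That reference mean was a Ct of 19.8, 19.6 and 19.9 in the WT replicates and 19.4, 19.6 and 19.5 in the NOD1-deficient replicates. It was thus earlier in NOD1-deficient larvae by 0.30 (two-sided exact permutation p = 0.1, below which 3 pools against 3 cannot go), and its part in the changes below was not tested. Since whole larvae were homogenized, fewer cells of a type and less RNA per cell cannot be told apart.

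The RefSeq transcript named for each of the 5 assays matched a gene in the annotation of the GRCz12tu assembly, and 4 of 5 matched under the array's symbol. The transcript behind the *gsk3b* assay is now listed as *gsk3ba*, and a related gene, *gsk3bb*, is annotated beside it, as is *ctnnb2* for *ctnnb1* and *apc2* for *apc*. Whether the primers also amplify these related genes was not tested.

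The levels were compared first, in WT larvae. The delta Ct of *ctnnb1*, whose product is both the Wnt effector and a component of adherens junctions, was 0.21, 0.82 and 0.32 in the 3 WT replicates, or 0.449 ± 0.326 (SD, n = 3). That of the cyclin gene *ccnd1* was 1.13, 1.21 and 0.92, or 1.08 ± 0.148 (SD, n = 3). The scaffold gene *apc* followed with 1.89, 2.15 and 2.02, or 2.02 ± 0.127 (SD, n = 3). The spread was widest for *ctnnb1*, where WT replicate 2 lay apart from the other replicates. The kinase gene *gsk3b* had a delta Ct of 2.80, 2.71 and 2.62, or 2.71 ± 0.0866 (SD, n = 3). The pocket protein gene *rbl2* stood far below the others, with 6.93, 7.31 and 7.04, or 7.09 ± 0.192 (SD, n = 3). The WT replicates of neighboring genes in this order did not overlap.

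If each product doubles in each cycle, these delta Ct give transcript copies relative to a gene at the mean reference Ct. They were 73.3% for *ctnnb1*, 47.2% for *ccnd1*, 24.6% for *apc*, 15.3% for *gsk3b* and 0.732% for *rbl2*. A mean of Ct is a geometric mean of copies, and the WT mean Ct was 14.3 for *rpl13a*, 22.3 for *hprt1* and 22.8 for *nono*. Between the first 4 genes each step was less than 2-fold, 1.55-fold from *ctnnb1* to *ccnd1*, 1.91-fold from *ccnd1* to *apc* and 1.61-fold from *apc* to *gsk3b*. The step from *gsk3b* to *rbl2* was 20.9-fold, and the whole span was 100.05-fold. Primer efficiencies are not given in the sources used here, and at a 1.9-fold product per cycle for all assays the span was 71.2-fold. Unequal efficiencies of the assays would change the steps further. Among the 84 pathway genes ranked from the highest WT level, *ctnnb1* was at place 11, *ccnd1* at 19, *apc* at 29, *gsk3b* at 37 and *rbl2* at 76.

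NOD1-deficient larvae had the same order, and again no neighbors overlapped. The mean delta Ct was 0.427 ± 0.105 for *ctnnb1*, 1.32 ± 0.160 for *ccnd1*, 1.94 ± 0.126 for *apc*, 3.02 ± 0.232 for *gsk3b* and 7.41 ± 0.275 for *rbl2* (SD, n = 3 each). The places among the 84 genes were 11, 19, 27, 40 and 76. From *ctnnb1* to *rbl2* the span was 126.2-fold under doubling, against 100.05-fold in WT.

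**Figure D1:**
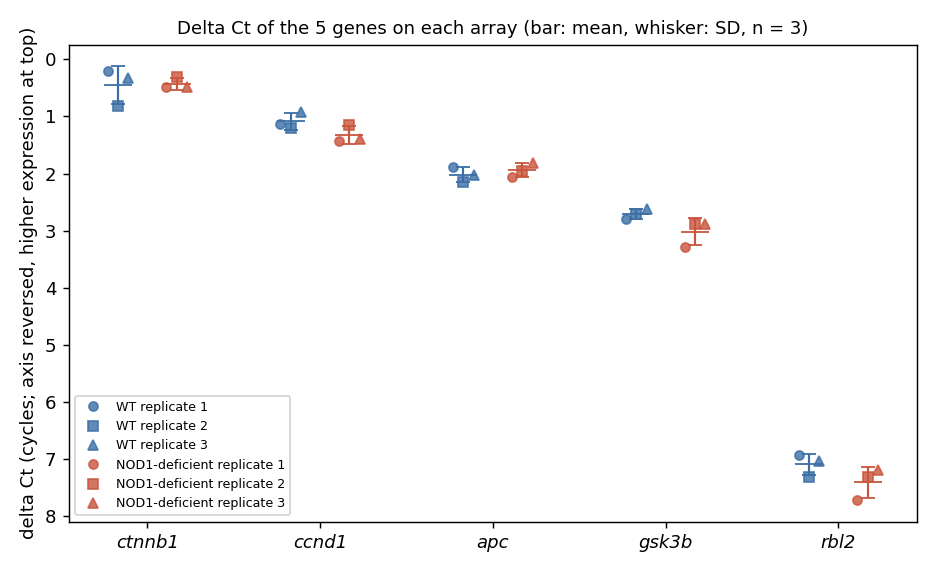
Delta Ct in cycles (reversed axis) of *ctnnb1*, *ccnd1*, *apc*, *gsk3b* and *rbl2* for each of the 3 WT (blue) and 3 NOD1-deficient (red) replicates, with group means (bars) and SD (whiskers). The genes keep their order in both groups. The only gene shown whose groups do not overlap is *gsk3b*, with WT between 2.62 and 2.80 and NOD1-deficient between 2.88 and 3.28. Among the 84 pathway genes, the groups do not overlap for 26 (31.0%).

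The next question was whether the loss of NOD1 moved these transcripts. Minus delta Ct of all 84 pathway genes was fitted with limma, and p-values were adjusted over the 84 genes by the method of Benjamini and Hochberg. The number of genes among the 5 with an adjusted p under 0.05 was 0, beside 16 of the 84 genes (19.0%). At an unadjusted p under 0.05 there was 1 of the 5 genes (*rbl2*), beside 31.0% of the 84. With a separate variance for each gene, 0 of the 5 passed at the adjusted and 0 at the unadjusted p, beside 7.14% and 22.6% of the 84. Over the 5 genes the median log2 change was -0.24, against -0.11 for all 84, with 59 of the 84 genes (70.2%) and 3 of the 5 below 0.

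For the destruction complex, the 2 transcripts measured gave different values. The scaffold gene *apc* had a delta Ct of 2.06, 1.95 and 1.81 in the NOD1-deficient replicates, against 1.89, 2.15 and 2.02 in WT, and the groups overlapped. Its log2 change was 0.08 ± 0.158 (SE), with an adjusted p of 0.784 in limma. The 95% confidence interval, from -0.23 to 0.39, allows a level between 0.854 and 1.31 times that of WT.

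The kinase gene *gsk3b* had a delta Ct of 3.28, 2.88 and 2.89 in the NOD1-deficient replicates, all above the 3 WT values, the highest of which was 2.80. It was the only one of the 5 genes whose groups did not overlap, beside 26 of the 84 genes (31.0%), 18 of them lower in NOD1-deficient larvae (21.4%). Replicate 1 stood 0.40 cycles above the other NOD1-deficient replicates and the gap between the groups was 0.081 cycles. The log2 change of *gsk3b* was -0.31 ± 0.158 (SE), an expression 0.809 times that of WT, with an adjusted p of 0.161 in limma (exact permutation p = 0.1). Its interval ran from -0.62 to 0.0049, so that a decrease to 0.652 times the WT level is within it and a 2-fold decrease is not. The interval from its own replicates was wider, from -0.70 to 0.090.

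The transcript of beta-catenin itself, *ctnnb1*, had a delta Ct of 0.49, 0.30 and 0.48 in the NOD1-deficient replicates. These lie inside the WT range of 0.21 to 0.82. Its log2 change was 0.02 ± 0.158 (SE), with an adjusted p of 0.968 in limma and an interval from -0.29 to 0.33. The SE of *ctnnb1* from its own replicates was 0.198, the largest of the 5, and its own interval ran from -0.53 to 0.57. WT replicate 2 decided the sign: without it the change of *ctnnb1* was -0.16, and it was also negative without NOD1-deficient replicate 2 (-0.039).

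For *ccnd1*, a beta-catenin target gene in mammals, the NOD1-deficient replicates had a delta Ct of 1.44, 1.14 and 1.39. Replicates 1 and 3 were above the highest WT value of 1.21, and replicate 2 was inside the WT range. The log2 change of *ccnd1* was -0.24 ± 0.158 (SE), or 0.847 times the WT level, with an adjusted p of 0.325 in limma and an interval from -0.55 to 0.072.

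The pocket protein gene *rbl2* had a delta Ct of 7.71, 7.32 and 7.18 in the NOD1-deficient replicates, against 6.93, 7.31 and 7.04 in WT. Replicate 3 was below WT replicate 2, so that the groups overlapped. The log2 change of *rbl2* was -0.31 ± 0.158 (SE), or 0.805 times the WT level, with an adjusted p of 0.157 in limma and an interval from -0.62 to -0.0020. The SE computed from the *rbl2* replicates alone was 0.194, and the matching interval ran from -0.85 to 0.22. Limma used 1 variance for all 84 genes, so that the SE of 0.158 was the same for each, while the SE from the own replicates was smaller for *apc* (0.103), *ccnd1* (0.126) and *gsk3b* (0.143).

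NOD1-deficient replicate 1 had the highest delta Ct of its group in all 5 genes, and it was also the array with the earliest reference mean (19.4). Without it, the log2 changes were -0.17 for *gsk3b*, -0.18 for *ccnd1*, -0.16 for *rbl2*, 0.14 for *apc* and 0.055 for *ctnnb1*. Leaving out any 1 of the 6 replicates kept *gsk3b*, *ccnd1* and *rbl2* negative and *apc* positive in 6 of 6 fits. None of the 5 genes passed in any of these fits, and the number of all pathway genes that passed in them is not given here.

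**Figure D2:**
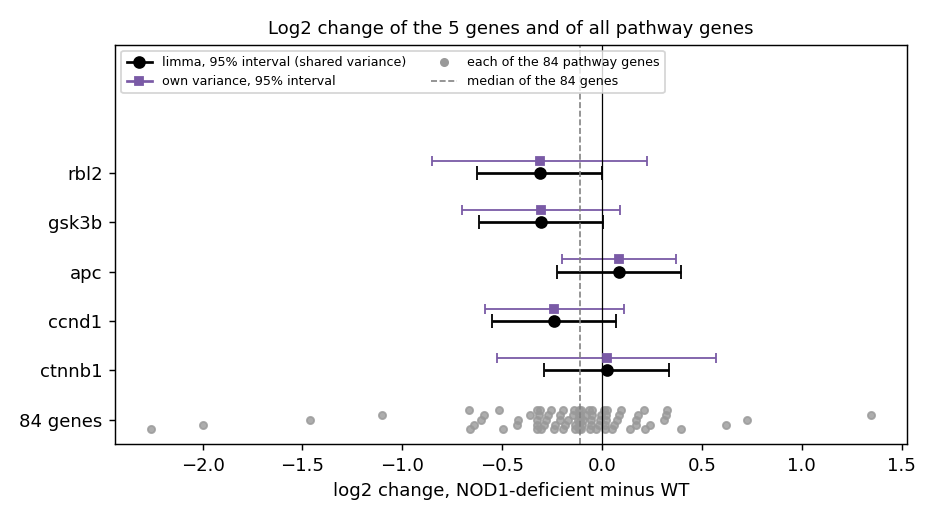
Log2 change, NOD1-deficient minus WT, of the 5 genes with 95% confidence intervals from limma (black) and from each gene's own replicates (purple), above the changes of all 84 pathway genes (gray) and their median of -0.11 (dashed line). The 5 changes lie between -0.31 and 0.08, and the upper end of the limma interval is at -0.0020 for *rbl2* and 0.0049 for *gsk3b*.

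The Ct as measured, before any scaling, sorted the 5 genes differently. The Ct of *apc* was 21.7, 21.8 and 21.9 in WT and 21.4, 21.5 and 21.3 in NOD1-deficient replicates, earlier in the latter by 0.38 cycles. The Ct of *ctnnb1* was 20.02, 20.4 and 20.2 in WT and 19.9, 19.9 and 20.01 in NOD1-deficient replicates, earlier by 0.32 cycles. In both genes the groups did not overlap (exact permutation p = 0.1 for each), as was the case for 42 of the 84 genes (50.0%), of which 34 (40.5%) were earlier in NOD1-deficient larvae. The 3 other genes overlapped and their Ct differed little, with unscaled log2 changes of -0.0096 for *gsk3b*, 0.057 for *ccnd1* and -0.016 for *rbl2*. Scaling to *hprt1*, *nono* and *rpl13a* subtracts the 0.30 by which these were earlier, and so brings *apc* and *ctnnb1* close to 0 and the other 3 genes to negative values. The positive PCR control wells, whose template does not come from larvae, were also earlier in the NOD1-deficient arrays, by 0.15 cycles (exact permutation p = 0.1). Scaled to these wells, the log2 changes were 0.23 for *apc* (limma adjusted p 0.142) and 0.17 for *ctnnb1*. They were -0.097 for *ccnd1*, -0.16 for *gsk3b* and -0.17 for *rbl2*. None of the 5 genes passed, beside 10 of the 84. The source of this plate difference was not tested.

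A ratio of 2 genes on the same array does not depend on any reference gene, and the 10 ratios between the 5 genes were therefore compared. With 3 arrays against 3 none of them can have an exact p under 0.1. The ratio of *apc* to *gsk3b*, the scaffold over the kinase, was 0.90, 0.56 and 0.60 on the log2 scale in WT and 1.23, 0.93 and 1.08 in NOD1-deficient replicates. It was higher in NOD1-deficient larvae by 0.39 ± 0.137 (SE from the replicates, exact permutation p = 0.1), and the groups were separated by 0.029, the gap between WT replicate 1 and NOD1-deficient replicate 2. The ratio of *apc* to *rbl2* was 5.04, 5.16 and 5.02 in WT and 5.66, 5.37 and 5.38 in NOD1-deficient replicates. That is a difference of 0.40 ± 0.103 (SE, exact permutation p = 0.1), again without overlap.

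These were the 2 of 10 ratios (20.0%) whose groups did not overlap, while among the 3486 pairs of all 84 genes the share was 43.4%. The median size of the change was 0.29 over the 10 ratios and 0.28 over the 3486 pairs. Because the 10 ratios come from 5 genes, they are not independent of each other.

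The ratios of *gsk3b*, *ccnd1* and *rbl2* to each other, and that of *apc* to *ctnnb1*, had the smallest differences of the 10. The log2 ratio of *gsk3b* to *rbl2* was 4.38 ± 0.231 in WT and 4.39 ± 0.0809 in NOD1-deficient replicates (SD, n = 3 per group), a difference of 0.0069 ± 0.142 (SE). For *gsk3b* to *ccnd1* the difference was -0.067 ± 0.120 (SE) and for *ccnd1* to *rbl2* it was 0.074 ± 0.179 (SE). The 2 remaining genes, *apc* and *ctnnb1*, differed from each other by 0.061 ± 0.154 (SE) in their change. The sets were chosen from these same values, and the change of a ratio is the difference between the log2 changes of its 2 genes. The values across these sets were therefore larger by construction. Apart from the ratios of *apc* to *gsk3b* and of *apc* to *rbl2* given above, they overlapped between the groups. The transcript ratio of *ctnnb1* to *ccnd1*, a target gene of beta-catenin in mammals, was higher in NOD1-deficient larvae by 0.26 ± 0.160 (SE, exact permutation p = 0.3). The ratio of *apc* to *ccnd1* was higher by 0.32 ± 0.149 (SE, exact permutation p = 0.2), and that of *ctnnb1* to *rbl2* by 0.34 ± 0.171 (SE, exact permutation p = 0.3). The ratio of the kinase to its substrate, *gsk3b* to *ctnnb1*, was -2.59 ± 0.194 in NOD1-deficient and -2.26 ± 0.352 in WT larvae (SD, n = 3 each), a difference of -0.33 ± 0.232 (SE, exact permutation p = 0.3). Single replicates moved these values: *gsk3b* to *ctnnb1* was -0.14 without WT replicate 2 and -0.49 without WT replicate 1, and *ctnnb1* to *ccnd1* was 0.14 and 0.41. Without NOD1-deficient replicate 1, *ctnnb1* to *rbl2* was 0.21.

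**Figure D3:**
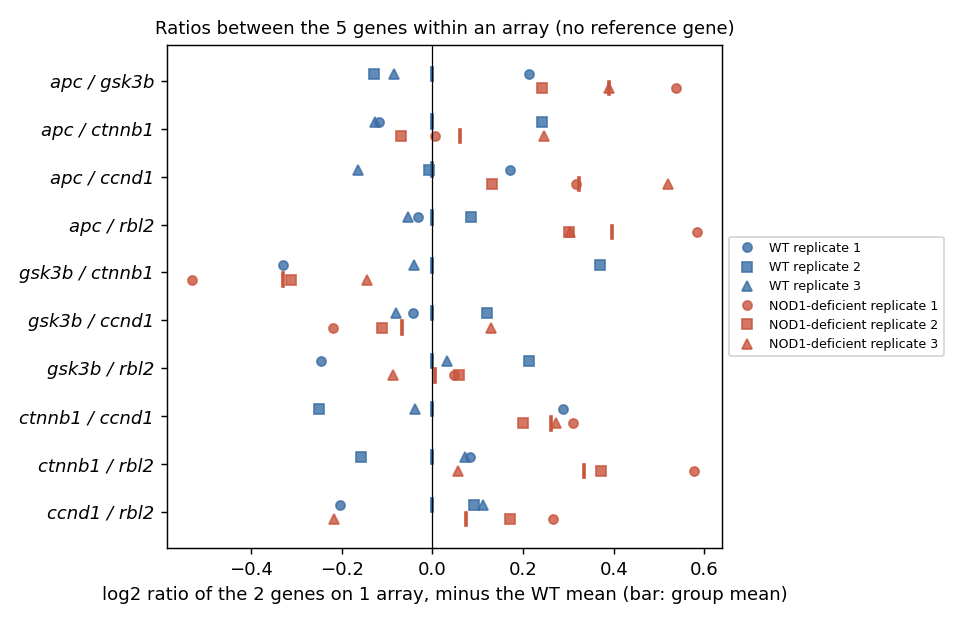
Log2 ratio of each pair of the 5 genes on each array, shown relative to the WT mean of that ratio, for 3 WT (blue) and 3 NOD1-deficient (red) replicates, with bars for the group means. The red points lie beyond all blue points for *apc* / *gsk3b* (mean shift 0.39) and *apc* / *rbl2* (0.40). The groups overlap for the other 8 ratios. Among all 3486 pairs of pathway genes, the groups do not overlap for 43.4%.

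The scaling was then varied. Other reference genes add the same constant to the change of each gene, so the distances between the 5 genes stayed the same while their position against 0 moved. As measured, the unscaled log2 changes were -0.61 for *acta1b*, -0.20 for *b2m* and 0.46 for *nono*. Under 9 other scalings, *apc* and *ctnnb1* were positive in 8 and negative in 1 (*nono* alone). The changes of *gsk3b* and *rbl2* were negative in 7 and positive in 2 (*acta1b* alone and *b2m* alone), and that of *ccnd1* was negative in 5 and positive in 4. With all 5 reference genes *apc* was the only one of the 5 genes that passed, as higher, by 0.37 (limma adjusted p 0.0494), beside 26.2% of the 84 genes. Scaled to *acta1b* alone, the skeletal muscle actin gene, all 5 passed as higher, by 0.60 to 0.995, beside 85.7% of the 84 genes. With *b2m* alone *apc* and *ctnnb1* passed as higher (0.58 and 0.52), beside 48.8%. With *nono* alone *gsk3b* and *rbl2* passed as lower (-0.47 and -0.48, limma adjusted p 0.0336 for each), beside 32.1%.

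The median log2 change of the pathway genes was -0.11. Relative to it, the changes were 0.20 for *apc*, 0.13 for *ctnnb1*, -0.13 for *ccnd1*, -0.19 for *gsk3b* and -0.20 for *rbl2*. Scaling each array to the median Ct of the pathway genes is a different measure. It gave log2 changes of 0.34 for *apc*, 0.28 for *ctnnb1*, 0.022 for *ccnd1*, -0.045 for *gsk3b* and -0.052 for *rbl2*. Under that scaling *apc* passed as higher (limma adjusted p 0.0274), beside 25 of the pathway genes, whose median change was 0.15.

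**Figure D4:**
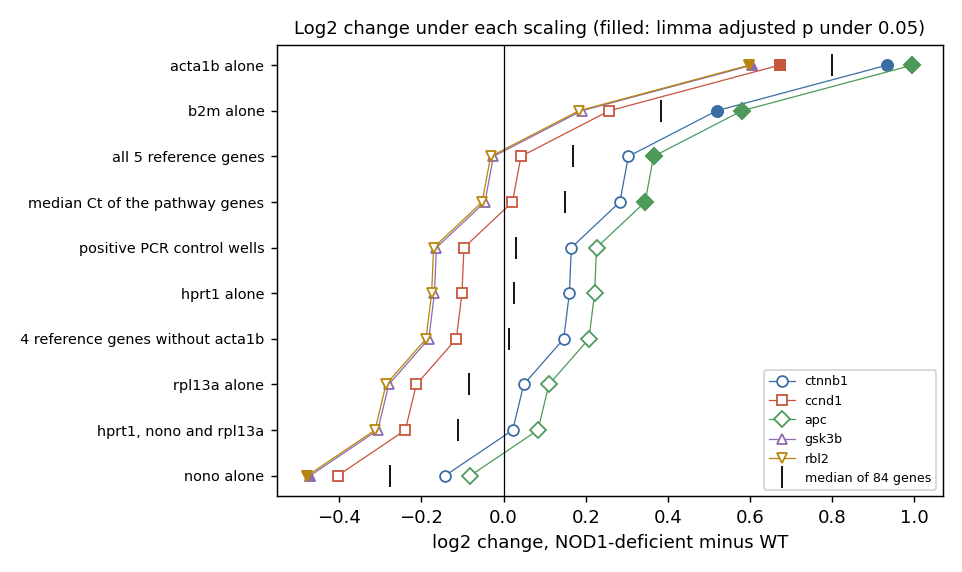
Log2 change, NOD1-deficient minus WT, of the 5 genes under each of 10 scalings of the arrays, with filled symbols where the limma adjusted p is under 0.05 and black ticks for the median of the 84 genes. From *nono* alone to *acta1b* alone, *gsk3b* moves from -0.47 to 0.61 and *apc* from -0.081 to 0.995, with the spacing between the genes unchanged.

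Among the genes listed here as acting on Gsk3b, *akt1*, *akt2* and *ilk* (integrin-linked kinase) had log2 changes of -0.21, -0.23 and -0.17, and 0 of 3 passed (limma adjusted p 0.336 to 0.523), beside 19.0% of the 84 genes. Their median of -0.21 stood beside -0.11 for the 84 genes. Of 6 other genes that act on cyclin D1 or on the entry into the cell cycle, 1 was higher, 1 was lower and 4 did not pass, again beside 19.0% of the 84 genes that passed. The gene that was higher was *fos*, an AP-1 subunit, by 0.73 ± 0.158 (SE, limma adjusted p 8.93e-05), and the one that was lower was *elk1*, an Ets factor activated by Erk, with a log2 change of -0.66 ± 0.158 (SE, limma adjusted p 0.000369). With a separate variance for each gene, *elk1* kept an adjusted p under 0.05 (0.0473) and *fos* did not (0.127). Other reference genes would move both changes by the constant they add to each gene. As measured, before scaling, the log2 change was -0.37 for *elk1* and 1.02 for *fos*. The other AP-1 gene, *jun*, had a log2 change of 0.31 (adjusted p 0.159), and its groups did not overlap, as in 31.0% of the 84 genes. The Foxo genes *foxo1a* and *foxo3b* had changes of -0.32 and 0.075, and *mapk3*, an Erk gene, had one of -0.20 (limma adjusted p 0.153 to 0.807). The median of the 6 genes was -0.060.

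Which other genes varied most like each of the 5 was described by the root mean square distance between 2 profiles over the 6 arrays, after the mean of each gene was removed. This distance does not depend on the reference genes, and all points share the same arrays, so differences between arrays enter all profiles alike. For *apc* the nearest of the 83 other genes was *cdc42*, which encodes a small GTPase, at 0.0465, where the median gene was at 0.194. The profile of *ccnd1* was nearest to *akt1* at 0.0558 and *mapk3* at 0.0618, with a median of 0.206. The nearest to *ctnnb1* were *rheb*, the GTPase upstream of mTOR, at 0.102 and *casp9* at 0.122, with a median of 0.210.

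The gene nearest to *gsk3b* was *ccnd1* at 0.125, followed by *prkca*, a protein kinase C gene, at 0.141 and *rbl2* at 0.142, where the median gene was at 0.230. The nearest to *rbl2* were *pdpk1b* and *tsc2*, both at 0.135, and *gsk3b* was at place 3 for it and *ccnd1* at place 21. The reverse was not as close: seen from *ccnd1*, *gsk3b* was at place 14 and *rbl2* at place 36. For *gsk3b*, *apc* was at place 48 (0.238) and *ctnnb1* at place 58 (0.284) of the 83 genes. The scaffold and the kinase of the destruction complex were thus close to the median distance of 0.230. Seen from *ctnnb1*, *apc* was at place 19, and seen from *apc*, *ctnnb1* was at place 32.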

How the data were processed

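Larvae of both genotypes (10 dpf) were lysed in TRIzol, 1000 ng of total RNA was reverse transcribed with SuperScript III, and SYBR Green PCR was run for 40 cycles on a commercial PI3K-Akt array, as the labels and methods state. GEO lists 1 sample per genotype, and the 3 columns of each in the raw table were taken as the biological replicates that the design text states. P-values measure the spread between these 3 arrays, but those of limma use the spread pooled over the 84 genes and not that of each gene. The SE from the own replicates ran from 0.043 to 0.624 over the 84 genes. Pooling also treats the genes as independent, although they share arrays and reference genes. The labels name no run or date, and precision is limited by having 3 arrays per genotype. The Ct values deposited are as the instrument gave them, with baseline and threshold not given in the sources used here. The normalized values that the authors deposited are linear ratios (2 raised to minus delta Ct), of which there is 1 for each genotype. They served only to find the authors' reference genes: averaging *rpl13a*, *nono* and *hprt1* after capping Ct at 35 gave values within 1.91e-06 (log2) of theirs. The authors' deposited fold changes were not used.

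Minus delta Ct of the 84 pathway genes was tested with limma 3.58.1 in R 4.3.3, two-sided, with a threshold of 0.05 on the adjusted p, after a test on simulated data. The simulated data had equal and independent spread for each gene, so that test could not show what unequal or shared spread does. On the measured arrays the fit estimated infinite prior degrees of freedom, and all genes shared 1 variance. Exact permutation tests used the 10 splits of the 6 arrays. Alternatives were 9 other scalings, limma with trend and robust, a replicate block, a linear model without moderation, a Ct ceiling of 40, limits of 35 and 30 on the mean Ct, leaving out each replicate, and a 1.9-fold product per cycle. Named genes were the 5 genes, those of 2 related lists, and the 2 nearest profiles of each gene. The genes, lists and tests were chosen with earlier results of these data known. Some genes that this rule names are not reported here.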

Additional observations from a re-analysis of the deposited data

How the results depend on the processing

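None of the 5 genes passed under 16 of 21 alternatives. The number that passed became 1 with all 5 reference genes and with the median Ct of the pathway genes (*apc* in both). It became 5 with *acta1b* alone, 2 with *b2m* alone and 2 with *nono* alone. Beside these, 22 of the 84 pathway genes passed with all 5 reference genes and 25 with the median Ct. With *acta1b*, *b2m* and *nono* alone, 72, 41 and 27 of the 84 passed. Among the scalings without a pass of the 5 genes, *hprt1* alone gave 16 of the 84 and *rpl13a* alone 14. The 4 reference genes without *acta1b* gave 16 and the positive PCR control wells 10. The number among the 5 genes was 0 in each fit that left out 1 replicate (0 to 0). For those fits and the replicate block, the number of the 84 that passed is not given here. Reversed signs came mainly from scaling: *acta1b* alone gave *gsk3b* 0.61, *ccnd1* 0.67 and *rbl2* 0.60, *b2m* alone gave 0.19, 0.26 and 0.18 for them, *nono* alone gave *apc* -0.081 and *ctnnb1* -0.14, and *ccnd1* was 0.042 with all 5 reference genes and 0.022 with the median Ct. Without 1 replicate, *ctnnb1* ran from -0.16 to 0.14. Of 105 changes computed for the 5 genes, 85 kept sign and side of the threshold, 8 passed with the same sign and 12 reversed. A 1.9-fold product per cycle moved the WT levels of *apc*, *gsk3b* and *rbl2* by more than 1 SD. The changes of the 10 ratios moved by less than 1 SE of that change under all their alternatives. Leaving out a replicate still changed *gsk3b* to *ctnnb1* (-0.49 to -0.14), *ctnnb1* to *ccnd1* (0.14 to 0.41) and *ctnnb1* to *rbl2* (0.21 to 0.47) by over 1.5 times. It also turned the sign of ratios near 0, such as *gsk3b* to *rbl2* (-0.12 to 0.11). Arrays with the same replicate number did not deviate together (correlations 0.12, 0.085 and -0.27), and the replicate block left 0 of 5 genes called. Limma intervals of about 0.31 to either side of a change mean that smaller differences are not resolved with 3 pools per genotype. A change of about that size did not pass after adjustment either (*rbl2* at -0.31, limma adjusted p 0.157). The intervals from the own replicates were wider than those of limma for all of the 5 genes but *apc*.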
